A study of Mus musculus with 6 samples.

Results

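The Sox factors described here are 9 members of the SRY-related HMG box family of transcription factors, namely Sox2, Sox21, Sox9, Sox4, Sox11, Sox12, Sox5, Sox6 and Sox8, measured in whole lung buds of mouse embryos. They were chosen by gene symbol: each had at least 1 probe set whose platform annotation carried that symbol alone, and where a gene had several (2 each for Sox21 and Sox4) the brightest on average was taken. All 9 were found among the 22180 genes tested. The mutant group (Fzd2 mutant) was 3 lungs of genotype Fzd2Flox/Flox with 1 Shh cre allele, and the control group (Shhcre control) was 3 lungs with the same Shh cre allele and no floxed Fzd2 named; all were dissected at E12.5, so the Cre allele is common to both groups. Cre made from the Shh gene acts in the lung epithelium, and Fzd2 encodes a Frizzled receptor for Wnt ligands, so the deletion was aimed at the epithelium while the RNA came from all cells of the bud. The labels call the arrays biological replicates, and do not say if a replicate was 1 embryo or several pooled. The study asked which genes depend on Fzd2 in the lung epithelium.

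Sox proteins bind DNA through a shared HMG domain and act with partner factors. In the branching lung, Sox2 marks the epithelium of the proximal airways and Sox9 the epithelium of the distal tips, and the boundary between these domains moves as tips branch and leave differentiating airway behind. Sox21, a relative of Sox2, is expressed in the Sox2 domain. Sox4, Sox11 and Sox12 form the SoxC group of progenitor cells in many tissues. Sox9 also works with Sox5 and Sox6 to turn on cartilage genes in the mesenchyme around the trachea and main bronchi, and Sox8 is a close relative of Sox9 known from neural crest and glia.

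Sox2 differed most. Its log2 expression was 8.37, 8.74 and 8.87 in mutant replicates 1 to 3, against 9.18, 9.53 and 9.25 in control replicates 1 to 3. Every mutant array lay below every control array, and mutant replicate 1 was the lowest of all. The mean was 8.66 ± 0.25 in mutants and 9.32 ± 0.18 in controls (SD, n = 3 each), a log2 difference of -0.66 (SE 0.14), so that the mutant level was 63.4% of the control level with a 95% interval from 50.7% to 79.3%. Limma, fitted on all genes with Benjamini-Hochberg adjustment, did not call Sox2 (adjusted p = 0.179), although its unadjusted p ranked 207 among the 22180 genes. A difference at least this far below 0 was found in 0.198% of all genes. By exact permutation of the arrays (two-sided) p was 0.1, the smallest that 3 arrays against 3 allow.

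Sox9, the distal tip factor, did not separate the groups. It stood at 9.996, 9.77 and 9.82 log2 units in mutant replicates 1 to 3, against 9.98, 10.14 and 9.84 in control replicates 1 to 3. Mutant replicate 1 lay inside the control range, so the groups overlapped. The log2 difference was -0.13 (SE 0.09, adjusted p = 0.585 by limma), with a 95% interval from -0.34 to 0.08. That interval excludes a change as large as that of the Sox2 mean. It does not exclude a decrease down to -0.34 or an increase up to 0.08. The value was -0.05 without control replicate 2, the highest array, -0.08 without mutant replicate 2 and -0.20 without mutant replicate 1 or control replicate 3.

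Sox21, the relative of Sox2 in the proximal airway, stood at 7.93, 8.06 and 7.97 in mutant replicates 1 to 3 and at 7.91, 7.99 and 7.95 in control replicates 1 to 3. The groups overlapped in part, with mutant replicate 2 above all controls and control replicate 1 below all mutants. Its log2 difference was 0.04 (SE 0.05, adjusted p = 0.786 by limma) with a 95% interval from -0.09 to 0.16, so the 2 proximal members did not share a difference of the size measured for Sox2. The second, dimmer probe set of Sox21 had a log2 difference of 0.18 (SE 0.10), and the mean of both probe sets gave 0.11.

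**Figure D1:**
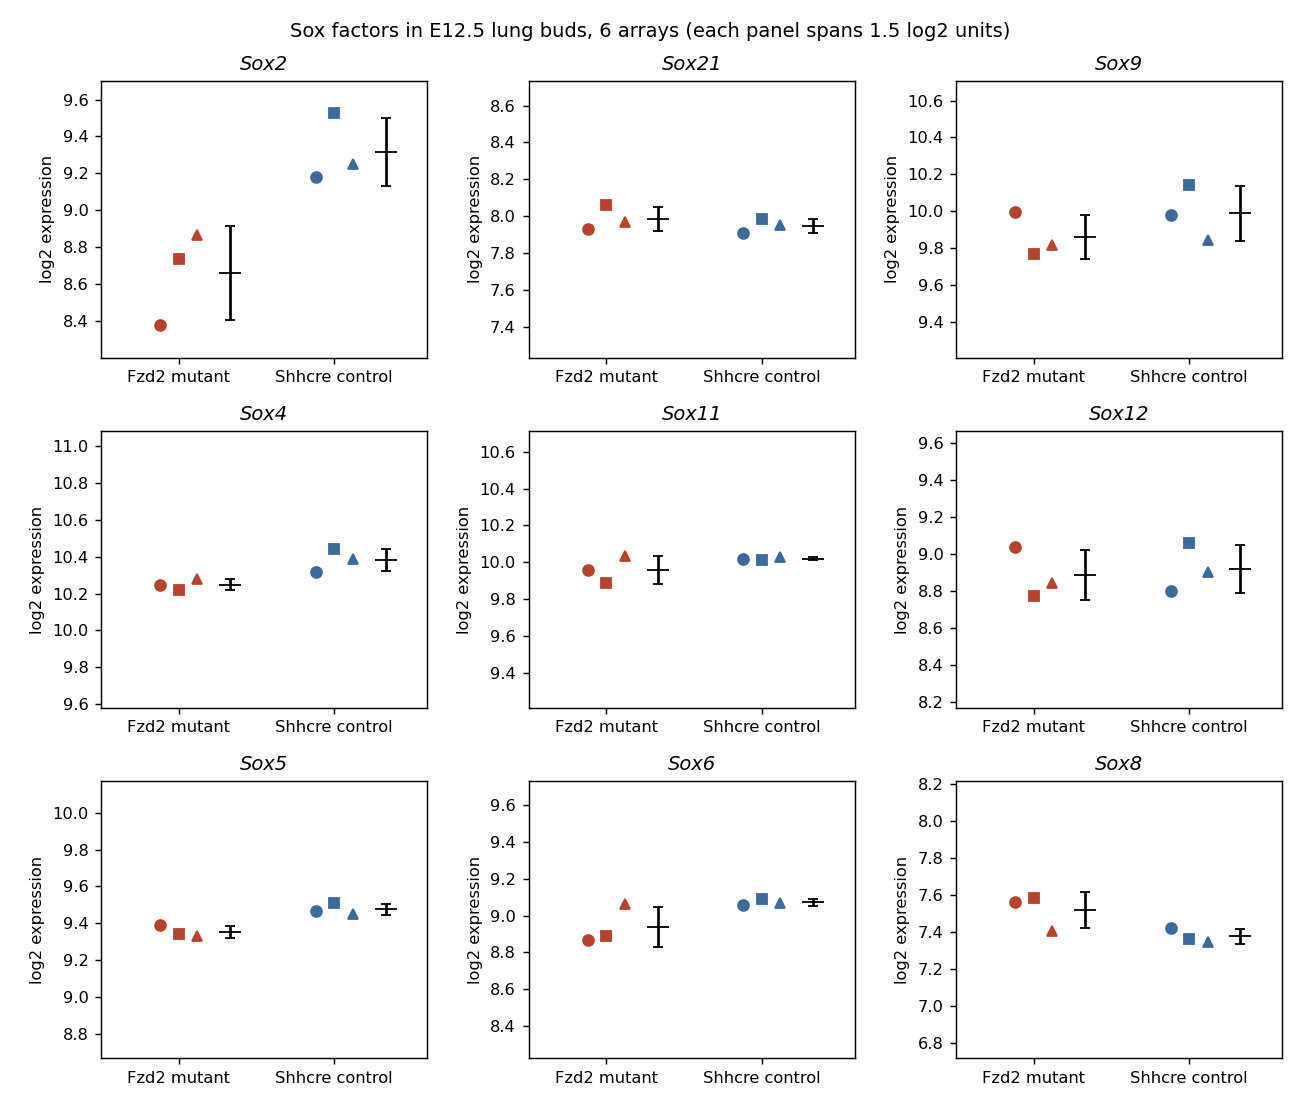
Log2 expression of the 9 Sox factors (vertical axis) in each Fzd2 mutant array (red, left) and each Shhcre control array (blue, right); circles, squares and triangles are replicates 1, 2 and 3, and bars give the mean and SD of 3 arrays. Sox2 shows the widest gap, with mutant values from 8.37 to 8.87 below control values from 9.18 to 9.53, while the points of Sox21, Sox9, Sox11, Sox12, Sox6 and Sox8 overlap between groups.

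Among the SoxC genes, which are expressed in mesenchyme and neurons as well as in epithelium, Sox4 was 10.25, 10.22 and 10.28 in mutant replicates 1 to 3, against 10.32, 10.44 and 10.39 in control replicates 1 to 3. No mutant array reached a control array, and the log2 difference was -0.13 (SE 0.05, adjusted p = 0.367 by limma). A second probe set of Sox4 had a log2 difference of -0.06 (SE 0.08) and overlapping groups. Sox11 was 9.96, 9.89 and 10.04 in mutants, against 10.02, 10.01 and 10.03 in controls, and mutant replicate 3 was above all controls. Its log2 difference was -0.06 (SE 0.05, adjusted p = 0.656 by limma), with a 95% interval from -0.19 to 0.06, and it was -0.02 without mutant replicate 2 and -0.10 without mutant replicate 3. Sox12 was 9.04, 8.77 and 8.85 in mutants and 8.80, 9.06 and 8.90 in controls, a log2 difference of -0.03 (SE 0.09), and the direction of that value turned when mutant replicate 2 (0.02) or control replicate 2 (0.03) was left out, and after a further quantile normalization (0.0068).

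Sox5 and Sox6, the partners of Sox9 in cartilage, both had lower means in mutants. Sox5 was 9.39, 9.34 and 9.33 in mutant replicates 1 to 3, against 9.47, 9.51 and 9.45 in control replicates 1 to 3. Its groups did not overlap either, and the log2 difference was -0.12 (SE 0.05, adjusted p = 0.364 by limma). Sox6 was 8.87, 8.89 and 9.06 in mutants, against 9.06, 9.09 and 9.07 in controls, where mutant replicate 3 reached the control range. Its log2 difference was -0.13 (SE 0.06, adjusted p = 0.431 by limma). Sox8 ran the other way, at 7.56, 7.59 and 7.41 in mutants and 7.42, 7.36 and 7.35 in controls, a log2 difference of 0.14 (SE 0.06, adjusted p = 0.407 by limma) with mutant replicate 3 inside the control range.

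Counted together, 7 of the 9 members had lower and 2 had higher means in mutants, and their median log2 difference was -0.12, beside 0.01 over all genes. Without control replicate 2 the median was -0.06, with 6 lower and 3 higher means. No member passed limma's adjusted p of 0.05, where 0.0631% of all genes did. In 3 members (Sox2, Sox4 and Sox5) every mutant array lay below every control array, where 8.83% of all genes did so. In 0 members was every mutant array above every control array, where 10.6% of all genes were. The same 3 had a lower mean at an unadjusted p under 0.05, where 5.15% of all genes did. That last count was 1 without mutant replicate 2, without control replicate 2, without control replicate 3, without control replicate 1 and mutant replicate 2 together, with the replicate number as a block, or after a further quantile normalization. All members other than Sox2 lay within 0.15 log2 units of 0.

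The bases before the start sites of Sox2, Sox4 and Sox5, the 3 members whose groups did not overlap, are shown from RefSeq (assembly GRCm38.p6) because Fzd2 is a Wnt receptor and Wnt signals act on DNA through TCF/LEF factors. Capitals mark matches on either strand to the TCF/LEF letters CTTTGA or CTTTGT, the SOX core ATTGT and the CCAAT box CCAAT, each sequence running 5′ to 3′ on the strand of its gene and ending at the base before the start.
Sox2, chr3:34649745-34649994, plus strand: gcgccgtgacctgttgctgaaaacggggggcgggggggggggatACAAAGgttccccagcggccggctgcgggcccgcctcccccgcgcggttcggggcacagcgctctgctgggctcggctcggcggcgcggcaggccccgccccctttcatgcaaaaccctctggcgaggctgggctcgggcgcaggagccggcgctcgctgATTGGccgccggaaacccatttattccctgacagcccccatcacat
Sox4, chr13:28953700-28953949, minus strand: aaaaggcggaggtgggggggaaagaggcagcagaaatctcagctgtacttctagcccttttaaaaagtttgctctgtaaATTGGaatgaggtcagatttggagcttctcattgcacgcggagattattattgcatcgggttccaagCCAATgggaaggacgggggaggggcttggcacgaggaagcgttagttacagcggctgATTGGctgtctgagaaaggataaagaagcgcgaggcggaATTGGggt
Sox5, chr6:143947107-143947356, minus strand: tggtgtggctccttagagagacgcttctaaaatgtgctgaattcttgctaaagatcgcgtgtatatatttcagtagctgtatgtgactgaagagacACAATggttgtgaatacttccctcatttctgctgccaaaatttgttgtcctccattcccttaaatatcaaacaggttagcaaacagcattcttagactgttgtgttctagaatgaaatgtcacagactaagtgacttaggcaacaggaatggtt

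In these 250 bases, Sox2 held 1 TCF/LEF match (ACAAAG, the reverse complement) and 1 CCAAT match, Sox4 held 4 CCAAT matches, and Sox5 held 1 SOX match. Of the 8 members matched in the RefSeq promoter table, some with several start sites, 3 held the TCF/LEF letters, 2 the SOX core and 5 the CCAAT box in at least 1 window. Among all 32851 windows of that length, 27.6%, 27.7% and 33.8% held them. These shares count single windows, while the 8 members were counted by gene over 13 windows, so the 2 are unlike measures. A match is a string of letters and was not tested as a binding site.

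The other 10 Sox genes on the array, among them the endothelial factors Sox7, Sox17 and Sox18 and the neural crest factor Sox10, all had higher means in mutants, by 0.01 to 0.16 log2 units, with 0 past limma's adjusted threshold and 2 at an unadjusted p under 0.05, where 7.34% of all genes were higher at that p and 12153 of 22180 had higher means. That count of 2 was 0 by limma without mutant replicate 2, mutant replicate 3 or control replicate 3, and 1 without any other single array. The 2 genes were Sox3 (0.16, SE 0.06), an X-linked relative of Sox2, and Sox14 (0.16, SE 0.07), which are known from the nervous system. Their levels were 7.86, 7.97 and 8.001 for Sox3 in mutants against 7.76, 7.82 and 7.76 in controls, and 7.73, 7.78 and 7.70 for Sox14 in mutants against 7.71, 7.53 and 7.50 in controls. The direction was not the same for all 10 in other fits: 1 turned after a further quantile normalization, and 2 turned without mutant replicate 1, mutant replicate 3, control replicate 1 or control replicate 2, or without control replicate 1 and mutant replicate 2 at once.

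**Figure D2:**
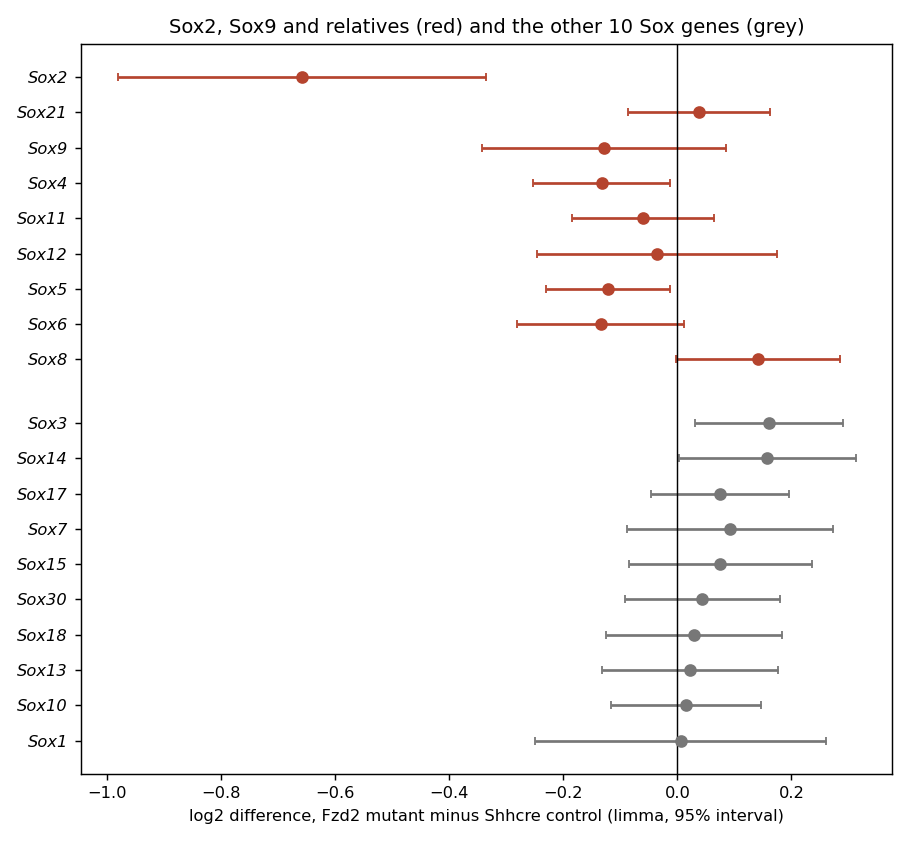
Log2 difference, Fzd2 mutant minus Shhcre control (horizontal axis), for the 9 Sox factors described here (red) and the other 10 Sox genes on the array (grey); points are limma estimates and bars their 95% intervals, not adjusted for the number of genes. Sox2 stands at -0.66, while all others lie between -0.13 and 0.16.

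Proximal and distal factors were then set against each other within each array, which removes anything that scales both alike. The log2 ratio of Sox2 to Sox9 differed between groups by -0.53 and that of Sox2 to Sox11 by -0.60. In both the groups did not overlap, and the two-sided exact permutation test gave p = 0.1 for each, the smallest possible, and 0.2 adjusted over the 4 pairs compared. The Sox2 to Sox9 ratio depended on mutant replicate 1: without it the difference was -0.32 (exact permutation p = 0.2). The ratios of Sox21 to Sox9 and of Sox21 to Sox11 differed by 0.17 and 0.10 (exact permutation p = 0.2 for each, 0.2 adjusted). With probe sets averaged, the ratio of Sox21 to Sox11 differed by 0.17 (exact permutation p = 0.1). Without mutant replicate 2 these were 0.09 and 0.03, and 0.07 and 0.0066 without control replicate 1 as well, while the ratio of Sox21 to Sox9 gave 0.11 without control replicate 2 and 0.26 without mutant replicate 1.

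Most genes on a list of epithelial genes had lower means in the mutant buds. In a bulk sample, fewer epithelial cells and less RNA per cell cannot be told apart. Not every gene on this pan-epithelial list is shared by all epithelia. It held the lung factor Nkx2-1 (-0.41) and the endoderm factors Foxa1 (-0.47) and Foxa2 (-0.29), which also enter the list mean. Of 26 measured pan-epithelial genes, 25 had lower means, with a median log2 difference of -0.29. At an unadjusted p under 0.05 by limma, 19 were lower and 1, Perp, was higher, beside 5.15% lower and 7.34% higher over all genes. At limma's adjusted threshold 1 fell, the splicing regulator gene Esrp1 (-0.48, adjusted p = 0.0334). With any 1 array left out limma called 0 genes of the whole table, Esrp1 included, with 1797 to 3084 at an unadjusted p under 0.05. The mean of the list was 9.04, 8.89 and 9.02 in mutant replicates 1 to 3, against 9.27, 9.25 and 9.19 in control replicates 1 to 3. Each of 4 factors was therefore also taken relative to that mean in the same array.

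Relative to the pan-epithelial mean, Sox2 was at -0.67, -0.15 and -0.16 in mutant replicates 1 to 3, against -0.09, 0.27 and 0.06 in control replicates 1 to 3. The groups did not overlap, although mutant replicates 2 and 3 came within 0.1 log2 units of control replicate 1. The difference was -0.40, of the -0.66 seen without this step, and -0.23 without mutant replicate 1. Sox21 and Sox11 were higher relative to the same mean, by 0.29 and 0.19, in all mutants above all controls. Sox9 was higher by 0.12 with overlapping groups. Without control replicate 1 and mutant replicate 2 the value of Sox21 was 0.17, and that of Sox9 ran from 0.08 to 0.19 with single arrays left out. The exact permutation p was 0.1 for Sox2, Sox21 and Sox11 and 0.3 for Sox9, and 0.133 and 0.3 adjusted over these 4 genes, a design in which none could reach 0.05. On the array scale Sox9, Sox11 and Sox21 lay between -0.13 and 0.04, so that their higher ratios carry the lower pan-epithelial mean.

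**Figure D3:**
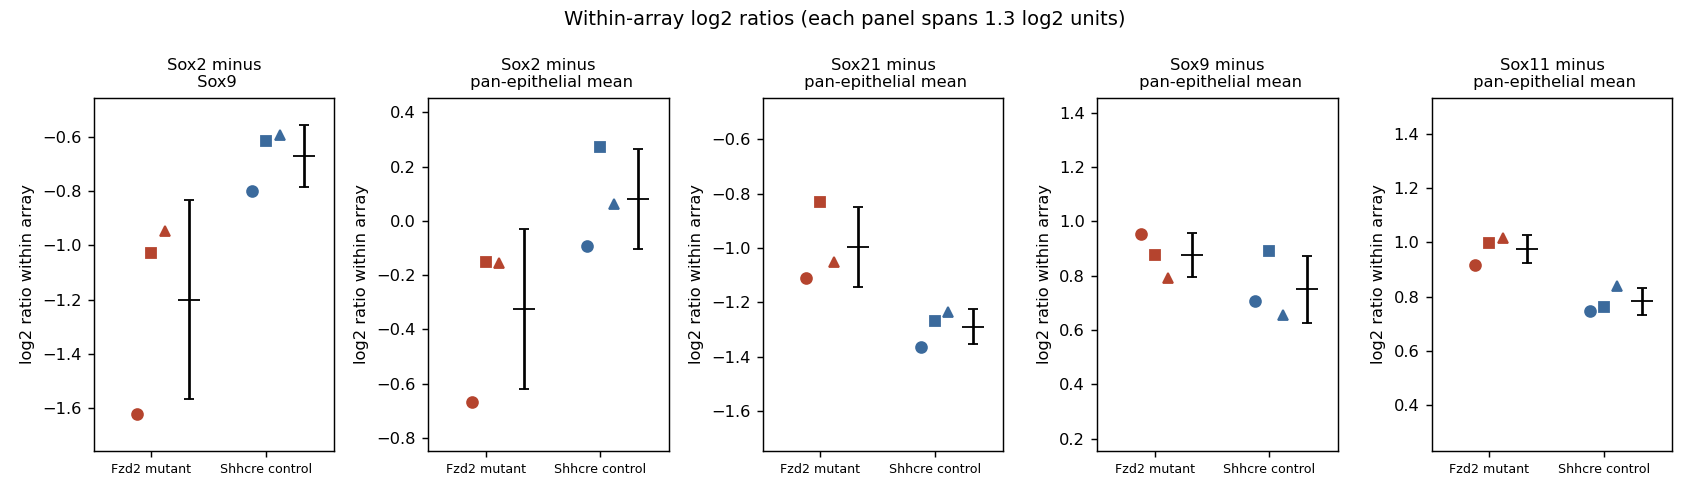
Log2 ratios formed within each array (vertical axes), with Fzd2 mutant arrays left in red and Shhcre control arrays right in blue; circles, squares and triangles are replicates 1, 2 and 3, and bars give the mean and SD. Sox2 relative to Sox9 and to the pan-epithelial mean is lower in every mutant array, most in mutant replicate 1 (-1.62 and -0.67), while Sox21 and Sox11 relative to the pan-epithelial mean are higher in every mutant array.

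The arrays differed in ways other than genotype, and these moved with some Sox values. Mutant replicate 1, the lowest in Sox2, was high in some heart muscle genes: Myh6 stood at 9.25 there, against at most 7.09 on every other array. It was not high in Myl2 (7.46, against 7.53 and 7.49 in mutant replicates 2 and 3) or in Myh7 (6.81, against 7.02 in control replicate 1). All 8 heart and striated muscle genes had higher means in mutants, with a summed level of 12.90, 11.31 and 11.35 log2 units in mutant replicates 1 to 3 and from 11.30 to 11.38 in controls. Their median log2 difference was 0.49, and 0.06 without mutant replicate 1, with 6 higher and 2 lower means. Without mutant replicate 1 the log2 difference of Sox2 was -0.52 (adjusted p = 0.245 by limma). Control replicate 2, the highest in Sox2, Sox9, Sox4, Sox12, Sox5 and Sox6, was the only array low in Y-linked genes (Uty at 5.40, against at least 10.52 on the others) and high in Xist. Without control replicate 2 Sox2 differed by -0.55 (adjusted p = 0.462 by limma). Control replicate 1 was high in Lyz1 (10.96, against at most 6.05 elsewhere) and mutant replicate 2 in Fabp4 (12.92, against at most 8.52 elsewhere), and without both Sox2 differed by -0.77. The part of these array differences in the Sox2 value was not tested beyond leaving the arrays out. Fzd2 itself was 9.67, 9.07 and 9.54 in mutants and 9.57, 9.82 and 9.75 in controls, with overlapping groups and a log2 difference of -0.29 (adjusted p = 0.475 by limma); the labels do not say if its probes lie inside the floxed part, so this is a weak check of the deletion. Lung markers were present on all arrays. The mesenchymal factor Foxf1 stood between 12.03 and 12.20, and the epithelial factor Nkx2-1 was 10.05, 10.09 and 10.09 in mutants, against 10.41, 10.57 and 10.49 in controls, a log2 difference of -0.41 (adjusted p = 0.0749 by limma) with no overlap.

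Oesophagus, a tissue next to the lung that also expresses Sox2, was checked by its own genes. Of 9 genes of oesophagus and stomach, 7 had higher means in mutants (list median 0.10 on the log2 scale). By limma, 0 were past the adjusted threshold and 1 was higher at an unadjusted p under 0.05, where 7.34% of all genes were. That gene was Krt4, a keratin of stratified epithelium, at 6.17, 6.34 and 6.35 in mutants against 6.02, 6.08 and 6.03 in controls. Of the 9 genes 3, Krt4 among them, lay below the 30th percentile of mean expression, where differences on the array are compressed. Next by p were Osr1 (0.20), Dsg3 (0.14) and Barx1 (0.10), each with overlapping groups. The summed level of the list was 12.34 to 12.47 log2 units in mutants and 12.11 to 12.38 in controls, and most of that sum is Osr1 (11.96 to 12.11 in mutants, 11.67 to 12.04 in controls), a gene of foregut mesenchyme, so that it does not measure oesophageal epithelium. The list median was 0.05 without control replicate 2 and 0.17 with control replicate 1 and mutant replicate 2 left out. The part of such tissue in the Sox2 value was not tested.

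Genes that mark the domains of Sox2 and Sox9 were read beside them. Of 10 measured proximal airway genes other than Sox factors, 7 had higher and 3 lower means in mutants (median log2 difference 0.03), and 0 passed limma's adjusted threshold. At an unadjusted p under 0.05 by limma 2 were lower, where 5.15% of all genes were. The first was Cldn10, a claudin of airway epithelium (7.81, 7.86 and 7.84 in mutants, against 7.91, 7.98 and 8.04 in controls), at -0.15. The second was the club cell gene Scgb1a1 (-0.15), which was dim, with means of 4.95 in mutants and 5.11 in controls. Without mutant replicate 3 or control replicate 2 there were 0 lower genes at that p by limma, and 1 without any other single array. The p63 gene Trp63, of basal cells, had a log2 difference of 0.04, and Foxj1, of ciliated cells, of -0.01. Of these genes 6, Scgb1a1 and Foxj1 among them, lay below the 30th percentile of mean expression, where differences on the array are compressed. Scgb1a1 and Scgb3a2 lay at percentiles 8.6 and 5.7. A list median near 0 therefore cannot tell if genes of the Sox2 domain held steady in these E12.5 buds. Without control replicate 1 and mutant replicate 2 the list median was -0.01.

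Of 16 distal tip genes, 9 had lower and 7 higher means, with a median log2 difference of -0.13 and 0 past limma's adjusted threshold. At an unadjusted p under 0.05 there were 6 lower and 5 higher, beside 5.15% lower and 7.34% higher over all genes. Lgr5, a receptor for R-spondins, was 7.73, 7.61 and 7.67 in mutants, against 8.06, 8.17 and 8.22 in controls (log2 difference -0.48, adjusted p = 0.0556 by limma). Mycn, a proliferation factor of the tips, was 8.47, 8.30 and 8.39 in mutants, against 8.63, 8.77 and 8.66 in controls. In the other direction, the FGF feedback inhibitor gene Spry2 was 9.21, 9.23 and 9.19 in mutants, against 8.89, 8.93 and 8.91 in controls, and the clusterin gene Clu had a log2 difference of 0.32. Groups in all 4 did not overlap. The number of higher genes was 7 without mutant replicate 2, and 2 without mutant replicate 3 or control replicate 1. It was 3 without mutant replicate 1, control replicate 2 or control replicate 3. The number of lower genes was 8 without mutant replicate 1 or control replicate 3. It was 5 without mutant replicate 2, mutant replicate 3 or control replicate 1.

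Of 13 cartilage genes, the known targets and company of Sox9, Sox5 and Sox6, 10 had higher and 3 lower means, with a median log2 difference of 0.05 and 0 past limma's adjusted threshold. Hapln1, a matrix link protein gene, was 9.46, 9.19 and 9.38 in mutants, against 9.68, 9.65 and 9.59 in controls, a log2 difference of -0.30. Col2a1, the main collagen gene of cartilage and a direct target of Sox9, was 8.77, 8.67 and 8.71 in mutants, against 8.98, 9.05 and 8.81 in controls, a log2 difference of -0.23. Both had groups that did not overlap, and so did Matn1 (0.28) and Acan (0.18), which were higher in mutants but below the 30th percentile of mean expression. Those 4 were the members at an unadjusted p under 0.05, 2 in each direction, beside 5.15% lower and 7.34% higher over all genes. The number of higher cartilage genes was 0 without control replicate 2, 1 without mutant replicate 2 or mutant replicate 3, and 3 without control replicate 1. The list median was 0.0059 without mutant replicate 3.

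**Figure D4:**
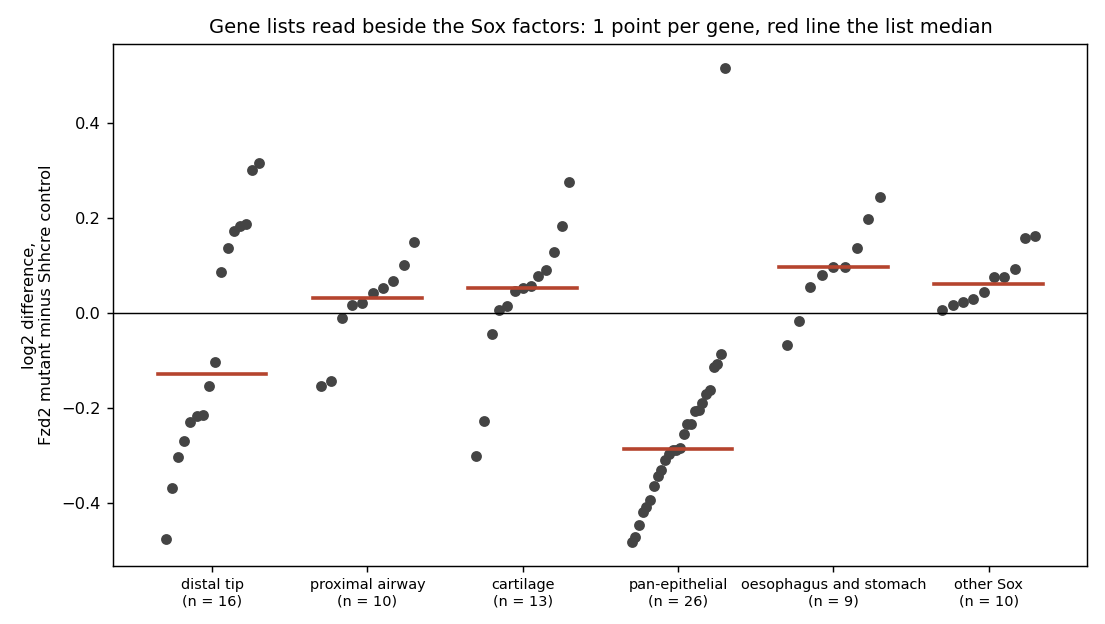
Log2 difference, Fzd2 mutant minus Shhcre control (vertical axis), of every measured gene in 6 lists (horizontal axis); each point is a gene, ordered within its list, and the red line is the list median. Distal tip genes spread to both sides of 0, and pan-epithelial genes lie below 0 apart from Perp at 0.52. Proximal airway genes, of which 6 of 10 lie below the 30th percentile of mean expression, cluster near 0 with a median of 0.03.

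Other cell types that express Sox factors were measured by their own genes. Over all genes, 5.15% were lower and 7.34% higher at an unadjusted p under 0.05 by limma, and the counts below stand beside these shares. Of 9 neural crest and neuron genes, 8 had higher means, 3 were higher and 1 lower at an unadjusted p under 0.05, and 0 passed limma's adjusted threshold; those with the smallest p were Erbb3, a neuregulin receptor gene (-0.36), the neuronal gene Stmn2 (0.38), Hand2 (0.37) and Foxd3 (0.17). Of 14 lung mesenchyme genes, 7 had higher and 7 lower means, 6 were higher and 0 lower at an unadjusted p under 0.05 by limma, and 1 rose at the adjusted threshold, the matrix proteoglycan gene Dcn (11.30, 11.29 and 11.27 in mutants, against 10.79, 10.77 and 10.68 in controls; adjusted p = 0.0238 by limma). The related Lum (0.61), Prrx1 (0.50) and Pdgfra (0.19) followed by p. Of 10 endothelial and 6 erythroid genes, 0 passed the adjusted threshold, and 1 in each list was at an unadjusted p under 0.05, the endothelial factor gene Erg (-0.18) and the erythropoietin receptor gene Epor (0.14). The summed level of neural genes was 12.34 to 12.51 log2 units in mutants and 12.37 to 12.47 in controls. The brightest gene in that sum was Ednrb (11.2 to 11.4 in mutants, 11.2 to 11.3 in controls). Dimmer genes such as Stmn2, Hand2 and Foxd3 weigh little in it, so the sum does not measure neurons. The part of neural genes in the Sox3, Sox14 and Sox8 values was not tested.

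The genes whose log2 values followed those of Sox2 most closely over the 6 arrays, among 14306 genes above the 30th percentile of mean expression, were Rictor (Pearson r = 0.991), Mras (0.989), Pole2 (0.987), Pcgf2 (0.984) and Ppp4r3b (0.983). For Sox9 they were Kctd21 (r = 0.998), Prkcd (0.995), Lrrfip1 (0.994), Rbpms (0.989) and Krba1 (0.987). These are descriptions of 6 points that share 6 libraries and fall into 2 genotypes, and 60 genes reached an r over 0.95 with Sox2 and 68 with Sox9. Taken on deviations from the group means, the r of the 5 genes lay between 0.926 and 0.963 for Sox2 and between 0.986 and 0.998 for Sox9.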

How the data were processed

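The authors deposited log2 expression values, in a single table of 6 arrays; the submitters' processing notes name oligo and RMA, without versions, probe set level or filters. Per the labels' protocols, 100 ng of RNA went into each array after poly(T)-primed linear amplification. RMA brings the arrays to a near common scale (medians 7.29 to 7.32), so differences are relative to the bulk of genes. Differences are also compressed at both ends of the range.

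Of 41345 probe sets, 23521 carried 1 symbol in the platform annotation, 1814 several and 16010 were unnamed here. The first gave 22180 genes, by the probe set with the highest mean. The group comparison used the linear models of limma 3.58.1 (R 4.3.3) with moderated variances and no covariate; p-values were two-sided and Benjamini-Hochberg adjusted over all genes, with a threshold of 0.05. If replicates shared a source, p-values measure only the spread between these arrays. Log2 differences are mutant minus control, and 3 arrays per group limit every value. Ratios within arrays were compared by exact permutation over arrays. The procedure was tested on simulated data.

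The members, lists, rules for naming genes and alternatives were chosen with earlier results of these data known. Named were all Sox genes, up to 4 genes per list by smallest p, the 5 genes nearest in pattern to Sox2 and to Sox9, and the array marks, Trp63, Foxj1 and Perp, chosen after their values were seen. Replicate numbers were not used as pairs in the main fit, because the labels state no block. Same-numbered replicates did not deviate together, which cannot tell if they shared a source. Figures were drawn with matplotlib 3.10.9.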

Additional observations from a re-analysis of the deposited data

How the results depend on the processing

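Over the alternatives run, 16 for each member and 15 for Sox8, which fell under the 50th percentile filter, no member passed limma's adjusted threshold, and Sox2, Sox9, Sox4, Sox11, Sox5, Sox6 and Sox8 kept their direction. Sox2 ran from -0.77 to -0.52, with adjusted p from 0.115 to 0.462. Sox12 turned to 0.0068 after a further quantile normalization and ran from -0.1115 to 0.0339 with 1 array left out. Sox21 ran from 0.0028 to 0.0660 with 1 array left out and turned to -0.0174 when control replicate 1 and mutant replicate 2 were both dropped, and 0.1081 was its value with probe sets averaged. The cause was not tested. The 14 genes called overall became 8 when arrays were quantile normalized again, 25 and 50 with the 30th and 50th percentile filters, where fewer genes are tested, and 26 with either a trended or a robust variance. Limma called 0 with any single array left out (1797 to 3084 genes at an unadjusted p under 0.05) and 0 without control replicate 1 and mutant replicate 2 (2716 at an unadjusted p under 0.05). With the replicate number as a block it called 0 (2511 at an unadjusted p under 0.05), and Sox2 stayed at -0.66 (adjusted p = 0.235). Deviations of same-numbered arrays correlated at -0.045, -0.061 and 0.074. These values cannot tell if same-numbered arrays shared a source. No member was called without the block, so it had no call of a member to remove, and it added none. For Sox2 the SE was 0.139 without the block and 0.096 with it. The SE was also lower with the block for Sox21, Sox9 and Sox8, and higher for Sox4, Sox11, Sox12, Sox5 and Sox6. Of 223 list medians recomputed, 14 moved by more than the spread between replicates.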

Other observations

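Canonical Wnt targets, read beside the Sox factors because Fzd2 is a Wnt receptor, had means on both sides of the controls. Of 15 measured, 9 had lower and 6 higher means in mutants (median -0.05 on the log2 scale), and 0 were past limma's adjusted threshold (4 lower and 2 higher at an unadjusted p under 0.05, beside 5.15% lower and 7.34% higher over all genes). Leaving out mutant replicate 2 gave 4 higher, and leaving out any 1 control array gave 1. The smallest p on this list was that of Lgr5 (-0.48), which is also counted among the distal tip genes above. The ubiquitin ligase genes Rnf43 (8.73, 8.64 and 8.59 in mutants, against 8.95, 8.98 and 8.99 in controls) and Znrf3 (9.98, 9.80 and 9.86 in mutants, against 10.21, 10.24 and 10.11 in controls) were lower in every mutant array, and the Wnt inhibitor gene Wif1 (7.69, 7.51 and 7.63 in mutants, against 7.25, 7.24 and 7.42 in controls) was higher in every mutant array. Without control replicate 3 the list median was 0.0061.

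Of the noncoding genes named after Sox loci, 2 had a probe set with that symbol alone. A probe set annotated to both Sox2ot and Mir1897 was not among the genes tested. Its log2 difference was -0.08 (SE 0.05) in a fit of all probe sets. Sox5os3, named for the strand opposite Sox5, was 6.67, 6.75 and 6.74 in mutants, against 6.55, 6.54 and 6.66 in controls, a log2 difference of 0.14 (SE 0.05, adjusted p = 0.365 by limma), while Sox5 had a log2 difference of -0.12. The sources used here do not state which strand the probes read. Sox1ot had a log2 difference of 0.03 (SE 0.06).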
